A study of Caenorhabditis elegans with 22 samples.

Results

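The genes described here are the UDP-glucuronosyltransferase (ugt) genes of Caenorhabditis elegans other than ugt-8, ugt-10, ugt-14, ugt-16, ugt-25, ugt-33, ugt-34 and ugt-37. They were taken by name, as every gene whose identifier begins with ugt- apart from those 8, which left 57 of the 65 ugt genes among 42048 genes in the deposited count table. The 8 left out were all higher in ethanol than in the control at 1, 4 and 20 h in these same data. Leaving them out lowers the counts of rises in ethanol given below. Of the 57 genes, 54 had enough counts to be tested, among 15310 tested genes in all. The counts come from polyA RNA sequencing of whole worms of the N2 laboratory strain. The exposed worms were kept in S-basal, a salt buffer without food, with 5% ethanol (v/v) for 1, 4 or 20 h, 3 libraries at each time. Worms kept for the same times in S-basal with 0% ethanol, again 3 libraries at each time, are called controls. A time zero group of 4 libraries was taken before the worms entered buffer. All groups shared the same rearing: bleach-synchronised worms fed Escherichia coli OP50 on plates at 20 °C, pooled in large numbers for each library. The labels call the libraries biological replicates but tie none of them to separate cultures. The spread behind each p-value may therefore be partly technical.

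UDP-glucuronosyltransferases are enzymes of the endoplasmic reticulum membrane. They move a sugar from a UDP-sugar donor onto small lipophilic molecules such as drugs, plant compounds, bile pigments or hormones, which makes these more soluble and easier to excrete. In nematodes the sugar that is added is often glucose, and the family is much larger than in mammals. The step is called phase II of detoxification, after phase I enzymes such as cytochromes P450 have added a reactive group. In worms the intestine is a main site of this work, and nuclear hormone receptors and other transcription factors set the expression of many detoxification genes. For most of the worm ugt genes the natural substrate is not known, so the genes are grouped below by how they behaved.

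Library totals ran from 10908205 to 15302047 counts. Levels are given as CPM, counts scaled to the size of each library, after TMM factors had adjusted library sizes for differences in composition. Differences are log2 fold changes from edgeR's quasi-likelihood test with their standard error (SE), and a gene is said to have risen or fallen where its Benjamini-Hochberg adjusted p over all 15310 genes was under 0.05. The libraries of a group differed by more than counting error. Along the main axis of within-group variation, which held 41.4% of that variance, 6 libraries had scores above 10, and the farthest was control replicate 1 at 20 h with a score of 58.3. The protocols name the L3 stage and the series title the L4 stage, while 3 yolk protein genes, known from the adult intestine, summed to between 36710 and 55990 CPM in the time zero libraries. Among the marker lists, summed CPM of 8 body wall muscle genes was 1783 to 2102 in ethanol and 5356 to 6390 in the control at 20 h, and that of 9 neuronal genes was 310.3 to 342.6 in ethanol and 459.2 to 701 in the control. Summed CPM of 10 epidermal genes at 20 h was 156.8 to 257.5 in ethanol and 1274 to 1454 in the control. At time zero the sums were 3668 to 5408 CPM for muscle, 281.8 to 335.4 CPM for neurons and 1965 to 2702 CPM for epidermis. The neuronal sum in ethanol at 20 h thus overlapped that of time zero, while the control was above it. In whole-worm RNA, fewer cells of a type and less RNA per cell cannot be told apart.

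Per length, the members spanned a wide range of levels. At time zero the level per kilobase of exon ran from 0.0383 CPM for ugt-18 to 156.8 CPM for ugt-62, with a median of 6.82 CPM over the tested members. The 6 highest by this measure at time zero were ugt-62, ugt-22, ugt-58, ugt-47, ugt-49 and ugt-41. ugt-62 was also the highest per kilobase in ethanol at every time, at 139.1, 247.0 and 128.7 CPM at 1, 4 and 20 h. In the controls the place was held by ugt-22 at 1 h (81.3 CPM), ugt-62 at 4 h (41.9 CPM) and ugt-58 at 20 h (51.8 CPM). Summed over the 54 tested genes, the mean level was 2198, 1529 and 1569 CPM in ethanol at 1, 4 and 20 h, against 1407, 844 and 619 CPM in the controls of those times, and 1846 CPM at time zero. The summed level at 20 h was 1376, 1962 and 1368 CPM in the ethanol libraries and 633, 606 and 618 CPM in the control libraries, with no overlap.

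A group of 3 members was too low to test. ugt-27 had 63 counts over all 22 libraries (0 to 9 per library), ugt-35 had 8 (0 to 3 per library) and ugt-38 had 68 (0 to 13 per library). ugt-38 was listed at 0.962, 0.556 and 0.49 CPM in ethanol at 4 h, against 0.0871, 0 and 0 CPM in the control. At 20 h it was at 0.522, 0.844 and 0.345 CPM in ethanol and 0.153, 0.212 and 0.0811 CPM in the control. At both times each ethanol library lay above each control library, on few counts and with no test. Among the tested members, 34 reached the CPM minimum of the filter on low counts in all 7 groups, and 20 were under it in at least 1 group. ugt-3, ugt-42 and ugt-57 reached it in at most 1 group, so that a gene such as ugt-57, which passed through 1 high group, had to differ from the others. ugt-3 and ugt-42 were highest at time zero, so the filter favoured their falls from it, which are no result wherever counted below.

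**Figure D1:**
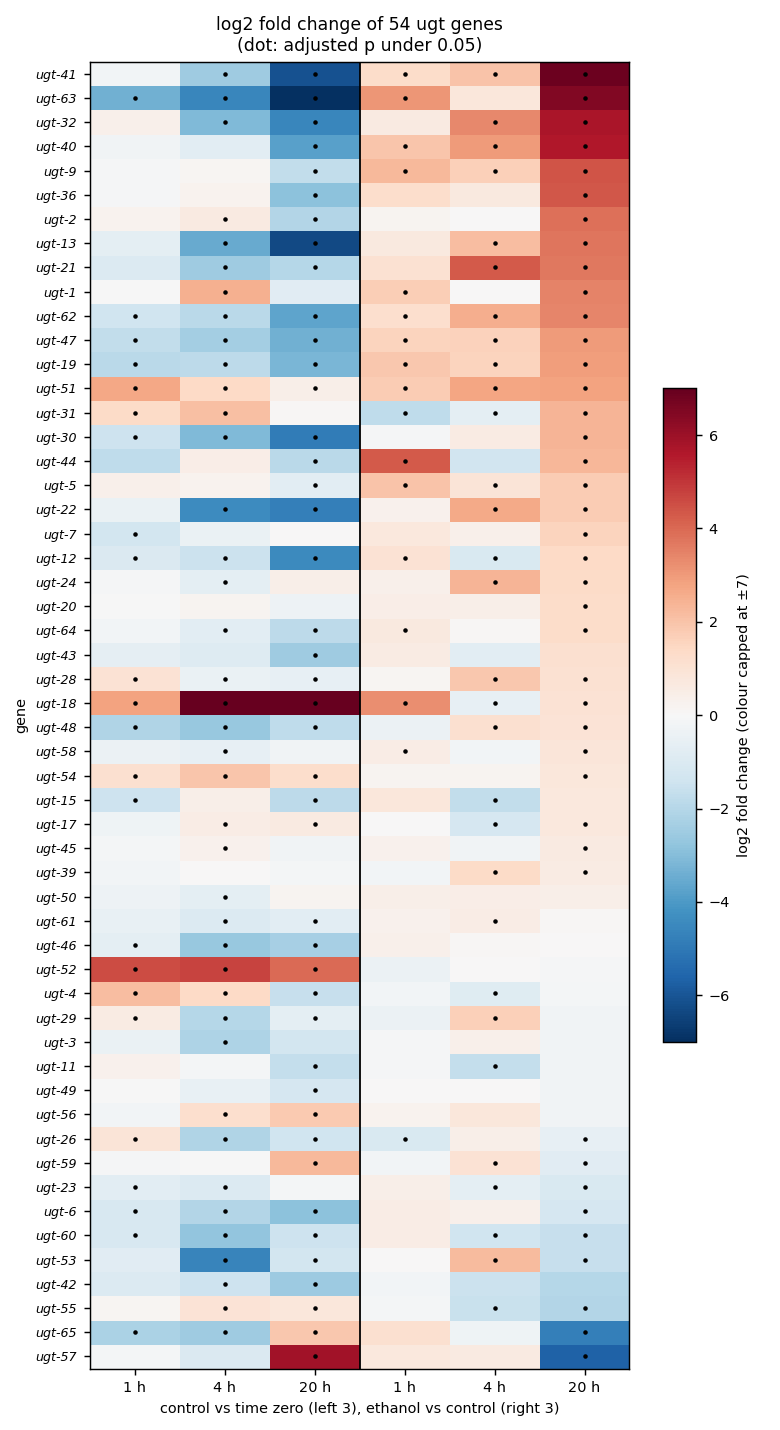
Log2 fold change of the 54 tested ugt genes (rows) from edgeR, with control against time zero in the 3 left columns and ethanol against the control of the same time in the 3 right columns, at 1, 4 and 20 h. Red is higher in the first-named group, blue is lower, colour is capped at 7, and a dot marks an adjusted p under 0.05. At 20 h, 33 of 54 genes fell in the control against time zero and 32 of 54 rose in ethanol against the control. Both comparisons use the same control libraries, so no relation between their colours is read.

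After 1 h in ethanol more members were higher than lower. Of the 54 tested, 15 rose and 2 fell against the 1 h control, which is 27.8% and 3.7% of them, beside 4.94% and 1.72% of all tested genes. The median log2 fold change was 0.45 over the members and -0.01 over all tested genes. The 8 ugt genes left out of this description all rose at 1, 4 and 20 h, so these counts are those of the rest of the family and are lower than for the family as a whole. With a covariate for each library's slope on exon length, 23 members rose at 1 h. The 4.94% comes from the fit without this covariate, so it is no background for the 23. The genes that rose were ugt-1, ugt-5, ugt-9, ugt-12, ugt-18, ugt-19, ugt-40, ugt-41, ugt-44, ugt-47, ugt-51, ugt-58, ugt-62, ugt-63 and ugt-64, and the genes that fell were ugt-26 and ugt-31.

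The steepest early rise was that of ugt-44. Its level was 121, 92.3 and 123 CPM in ethanol and 5.33, 5.77 and 6.29 CPM in the control at 1 h, a log2 fold change of 4.27 ± 0.68 (adjusted p = 0.000285). Each ethanol library was above each control, and also above the time zero libraries at 20.01, 20.1, 20.6 and 18.6 CPM. ugt-63 was at 52.5, 43.9 and 54.2 CPM in ethanol and 7.72, 4.07 and 5.52 CPM in the control, 8.57-fold higher (log2 3.10 ± 0.33, adjusted p = 1.68e-06). Unlike ugt-44, it was in ethanol close to its time zero level of 55.8, 65.95, 60.2 and 56.9 CPM, while the control was lower. ugt-18, which had 3 counts in all at time zero, was at 4.72, 4.85 and 4.28 CPM in ethanol and 0.342, 0.905 and 0.29 CPM in the control (log2 fold change 3.24 ± 0.32, adjusted p = 6.7e-07). Apart from ugt-18, ugt-51, ugt-52 and ugt-63, genes given in full were chosen among those whose groups do not overlap, so that their separation is no result. When the members were chosen, ugt-18, ugt-51 and ugt-52 were already known to rise in buffer alone and ugt-63 to fall. The differences of these genes between control and time zero are therefore no result either.

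Further rises at 1 h came from genes that were also higher at 4 and 20 h. ugt-9 was at 32.6, 26.7 and 33.6 CPM in ethanol against 8.54, 4.41 and 6.20 CPM in the control, a log2 fold change of 2.26 ± 0.22 (adjusted p = 4.36e-07). For ugt-5 the values were 65.8, 45.7 and 56.2 CPM in ethanol and 15.99, 12.4 and 13.9 CPM in the control, higher by 1.98 ± 0.18 (adjusted p = 1.79e-07). The less abundant ugt-40 was at 11.4, 9.61 and 8.33 CPM in ethanol and 3.42, 1.58 and 2.32 CPM in the control (log2 fold change 1.96 ± 0.30, adjusted p = 0.000146). ugt-19 had 24.9, 19.6 and 22.1 CPM in ethanol and 7.59, 4.30 and 5.81 CPM in the control, higher by 1.89 ± 0.31 (adjusted p = 0.000388). ugt-51 had 136, 112 and 133 CPM in ethanol and 42.03, 33.4 and 36.7 CPM in the control, higher by 1.76 ± 0.16 (adjusted p = 1.26e-07).

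Few members were lower at 1 h. ugt-31 was at 5.95, 4.67 and 5.00 CPM in ethanol and 17.5, 18.2 and 18.8 CPM in the control, 3.47-fold lower (log2 -1.80 ± 0.16, adjusted p = 9.52e-08). ugt-26 was at 77.5, 60.6 and 73.05 CPM in ethanol and 168, 129.8 and 153 CPM in the control, and fell by 1.09 ± 0.16 on the log2 scale (adjusted p = 7.87e-05). The control libraries of both genes were above those of time zero, where ugt-31 was at 6.61, 8.19, 6.12 and 8.20 CPM and ugt-26 at 66.8, 89.9, 77.8 and 83.9 CPM. ugt-52 did not pass the test, at 8.34, 11.9 and 8.33 CPM in ethanol and 10.52, 16.1 and 10.8 CPM in the control (log2 -0.38 ± 0.29, adjusted p = 0.624). Of the smaller rises, those of ugt-12, ugt-41, ugt-58 and ugt-62 passed the test narrowly, and several single libraries of either group, when left out, ended the call while the fold change moved little. The log2 fold change in those cases was 0.90 to 0.96 for ugt-12 (1.03 with all libraries), 1.19 to 1.30 for ugt-41 (1.31), 0.47 to 0.52 for ugt-58 (0.54) and 1.04 to 1.18 for ugt-62 (1.20). Without control replicate 2 at 1 h their adjusted p was 0.111, 0.0762, 0.171 and 0.101, without control replicate 3 it was 0.0876, 0.0594 and 0.0703 for ugt-12, ugt-41 and ugt-62, without ethanol replicate 1 it was 0.0666, 0.0589, 0.0851 and 0.0757 for the 4 genes, and without ethanol replicate 3 it was 0.0777, 0.0663 and 0.0772 for ugt-12, ugt-58 and ugt-62.

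**Figure D2:**
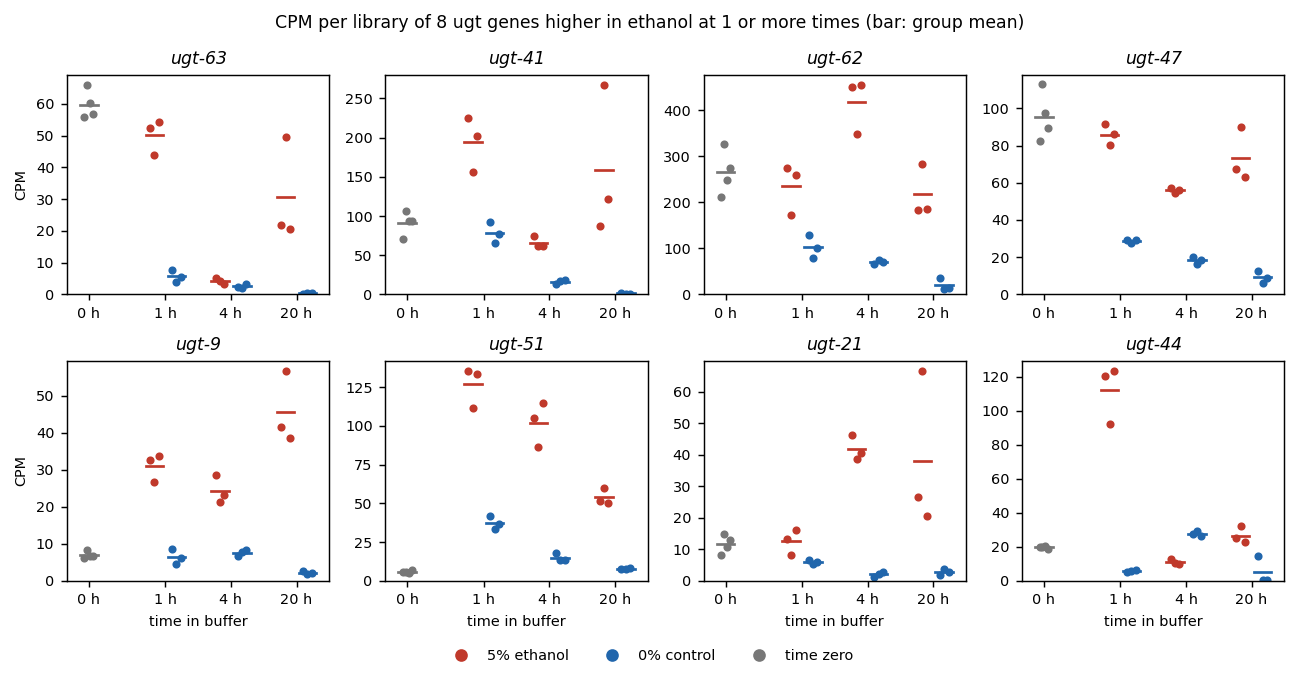
CPM in each library for 8 ugt genes that were higher in ethanol at 1 or more times, with time in buffer on the x axis; red points are 5% ethanol, blue points the 0% control, grey points time zero, and bars are group means. ugt-51 stayed above 50 CPM in every ethanol library, while ugt-44 was above 92 CPM at 1 h and at or under 12.6 CPM in ethanol at 4 h.

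After 4 h there were both rises and falls. Of the 54 members, 20 rose (37%) and 10 fell (18.5%) in ethanol against the 4 h control, beside 17.1% and 13.4% of all tested genes, so the share that fell was near that of all genes. The median log2 fold change was 0.40 over the members and 0.00 over all tested genes. Genes that rose were ugt-5, ugt-9, ugt-13, ugt-19, ugt-21, ugt-22, ugt-24, ugt-28, ugt-29, ugt-32, ugt-39, ugt-40, ugt-41, ugt-47, ugt-48, ugt-51, ugt-53, ugt-59, ugt-61 and ugt-62. Genes that fell were ugt-4, ugt-11, ugt-12, ugt-15, ugt-17, ugt-18, ugt-23, ugt-31, ugt-55 and ugt-60. Beside them, 2 of 9 intestine markers rose and 4 fell, and their summed CPM was 2099 to 2465 in ethanol and 3249 to 3557 in the control. Of 10 epidermal markers 1 rose and 2 fell, with summed CPM of 1216 to 1442 in ethanol and 1795 to 1977 in the control. Their median log2 fold change was 0.42, so the lower sum does not describe the list as a whole. Of 9 neuronal markers 1 rose and 2 fell, and of 7 sperm markers 3 rose, with summed CPM of 204.9 to 221.7 in ethanol and 140.1 to 153.1 in the control. The part of these in the ugt values was not tested.

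ugt-21 had the steepest rise at this time among the genes given in full. It was at 46.3, 38.8 and 40.6 CPM in ethanol and 1.22, 2.13 and 2.88 CPM in the control, 19.8-fold higher (log2 4.31 ± 0.42, adjusted p = 1.46e-07). Every ethanol library was also above the time zero libraries, at 8.19, 14.8, 10.7 and 12.8 CPM. ugt-51 was at 105, 86.1 and 115 CPM in ethanol and 17.6, 13.4 and 13.7 CPM in the control (log2 fold change 2.77 ± 0.16, adjusted p = 9.21e-11). ugt-40 was at 13.5, 14.1 and 14.5 CPM in ethanol and 2.00, 2.06 and 1.33 CPM in the control (log2 fold change 2.96 ± 0.30, adjusted p = 2.15e-07). Both were higher in ethanol at each of the 3 times.

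ugt-22 and ugt-62, the most abundant members per kilobase at time zero, both rose at 4 h. ugt-22, which has been linked to the worm's handling of the anthelmintic albendazole, was at 89.3, 62.5 and 76.8 CPM in ethanol and 10.98, 13.4 and 11.7 CPM in the control (log2 fold change 2.66 ± 0.24, adjusted p = 4.27e-08). Its time zero libraries held 217, 276, 243 and 265 CPM, above both groups. ugt-62 was at 449.5, 348 and 456 CPM in ethanol and 67.1, 75.1 and 70.2 CPM in the control (log2 fold change 2.56 ± 0.31, adjusted p = 2.49e-06), with 212, 326, 248 and 274 CPM at time zero. For ugt-62 the ethanol libraries were the highest of all groups. ugt-24, much less abundant, was at 12.7, 12.02 and 14.9 CPM in ethanol and 2.96, 2.47 and 2.11 CPM in the control, higher by 2.40 ± 0.21 (adjusted p = 2.57e-08).

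Of the members lower at 4 h, 4 are given in full. ugt-15 was at 4.81, 4.59 and 6.86 CPM in ethanol and 21.9, 15.4 and 17.4 CPM in the control, and fell by 1.75 ± 0.33 on the log2 scale (adjusted p = 0.000311). ugt-11 was at 3.03, 3.82 and 2.61 CPM in ethanol and 10.6, 10.7 and 8.99 CPM in the control, and fell by 1.67 ± 0.22 (adjusted p = 7.67e-06). ugt-17 had 12.8, 12.9 and 13.6 CPM in ethanol and 35.98, 26.97 and 25.3 CPM in the control, 2.24-fold lower (log2 -1.16 ± 0.21, adjusted p = 0.000189). ugt-12, which had risen at 1 h, was at 15.3, 11.7 and 11.4 CPM in ethanol and 31.3, 25.2 and 24.2 CPM in the control (log2 -1.07 ± 0.26, adjusted p = 0.00366). These falls left ethanol between 2.09-fold and 3.36-fold below the control.

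Among the genes followed at every time, ugt-63 missed the threshold at 4 h with 5.25, 4.31 and 3.35 CPM in ethanol and 2.35, 1.92 and 3.30 CPM in the control (log2 0.77 ± 0.35, adjusted p = 0.115). ugt-52 missed it too, at 15.9, 13.1 and 14.5 CPM in ethanol and 15.7, 15.5 and 11.9 CPM in the control (log2 0.02 ± 0.28, adjusted p = 0.979). ugt-18 was at 22.5, 19.5 and 20.2 CPM in ethanol and 30.5, 31.8 and 29.5 CPM in the control, and fell by 0.56 ± 0.21 (adjusted p = 0.0452). That call ended when any 1 of the 6 libraries of the comparison was left out, with adjusted p between 0.0667 and 0.131. The rises of ugt-59 and ugt-61 ended likewise. Adjusted p was 0.0561 to 0.180 for ugt-59 without any 1 of the 6 libraries, and 0.0662 to 0.106 for ugt-61 without any but ethanol replicate 2. The fall of ugt-23 ended without control replicate 1 (0.0552) or ethanol replicate 3 (0.0573). Without control replicate 1 the log2 fold change of ugt-53 was 2.92, against 2.21 with it.

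By 20 h ethanol and control differed for most members. Of 54, 32 rose (59.3%) and 9 fell (16.7%), beside 25% and 28.1% of all tested genes. The median log2 fold change was 0.99 over the members and -0.06 over all tested genes. Beside the risen members stood changes in other tissues' markers: 8 of 8 body wall muscle genes, 7 of 9 neuronal genes and 3 of 3 yolk protein genes fell in ethanol, 7 of 7 sperm genes rose, of 10 epidermal genes 1 rose and 4 fell, and of 9 intestine genes 4 rose and 3 fell. Summed CPM of the yolk protein genes was 11080 to 25360 in ethanol and 43650 to 83500 in the control. Summed CPM of the intestine genes was 2042 to 3660 in ethanol and 2558 to 3466 in the control at 20 h, so those groups overlapped. No gene of the marker lists was at 0 in any group. The part of these differences in the ugt values was not tested.

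ugt-41 and ugt-63 showed the largest differences at 20 h among the genes given in full. ugt-41 was at 87.6, 267 and 122 CPM in ethanol and 2.21, 0.707 and 1.14 CPM in the control, 117-fold higher (log2 6.87 ± 0.43, adjusted p = 6.81e-11). ugt-63 was at 21.8, 49.5 and 20.5 CPM in ethanol and 0.0764, 0.565 and 0.325 CPM in the control, 90.7-fold higher (log2 6.50 ± 0.45, adjusted p = 2.33e-10). In both genes the control was below time zero, where ugt-41 stood at 71.02, 106, 93.4 and 94.2 CPM. The ethanol libraries overlapped time zero for ugt-41 and lay below it for ugt-63. Ethanol replicate 2 was the highest library for both: without it the log2 fold change of ugt-41 was 6.27, and without control replicate 2 that of ugt-63 was 7.21.

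ugt-9 was at 41.5, 56.8 and 38.5 CPM in ethanol and 2.60, 1.77 and 2.03 CPM in the control, 21.3-fold higher (log2 4.41 ± 0.24, adjusted p = 1.01e-11). ugt-2, with no call at 1 or 4 h, was at 64.00, 72.4 and 61.5 CPM in ethanol and 6.95, 3.32 and 3.49 CPM in the control (log2 3.84 ± 0.24, adjusted p = 4.7e-11). ugt-21 was at 26.5, 66.5 and 20.7 CPM in ethanol and 1.83, 3.82 and 2.92 CPM in the control, higher by 3.72 ± 0.41 (adjusted p = 2.03e-07), or by 3.04 without ethanol replicate 2. In each of these the ethanol libraries were above those of time zero as well as of the control, and for ugt-2 time zero stood at 16.01, 22.3, 17.6 and 19.4 CPM. ugt-1 was at 29.9, 66.5 and 34.9 CPM in ethanol and 7.79, 1.77 and 2.11 CPM in the control, higher by 3.49 ± 0.41 (adjusted p = 4.24e-07). ugt-51 was at 51.6, 60.1 and 50.2 CPM in ethanol and 7.49, 7.35 and 8.20 CPM in the control, higher by 2.81 ± 0.17 (adjusted p = 2.57e-11). ugt-18 was at 43.95, 53.2 and 39.2 CPM in ethanol and 16.7, 21.3 and 28.5 CPM in the control, higher by 1.04 ± 0.21 (adjusted p = 0.000262).

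Control replicate 1 at 20 h decided the size of several of these rises. It held 14.8 CPM of ugt-44, where the other 2 control libraries held 0.707 and 0.487 CPM and the ethanol libraries 25.01, 32.1 and 22.7 CPM. With it the log2 fold change of ugt-44 was 2.31 ± 0.64 (adjusted p = 0.0047), and without it 5.44 (adjusted p = 1.96e-12). Without it the log2 fold change was also larger for ugt-1 (4.49), ugt-13 (5.11, against 3.74 with it), ugt-19 (3.54, against 2.92), ugt-30 (2.95, against 2.36) and ugt-62 (4.02, against 3.40). ugt-15 and ugt-43, with adjusted p of 0.0705 and 0.0895 with it, then passed the test at log2 fold changes of 1.60 and 2.80. The rise of ugt-39 ended without control replicate 1 (adjusted p = 0.109), control replicate 3 (0.0805), ethanol replicate 1 (0.0636) or ethanol replicate 2 (0.145).

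Another 3 risen members had under 10 counts over the 20 h controls and are named because of that, after their values were seen. ugt-32 had 315 counts in ethanol and 5 in the control, ugt-36 had 168 and 7, and ugt-40 had 452 and 8. Their adjusted p was 3.36e-08, 2.38e-06 and 6.09e-10, and the fitted size of such differences depends on the few control counts. Without control replicate 1 the log2 fold change of ugt-36 was 5.47 against 4.34 with it and that of ugt-40 was 6.36 against 5.58. Without control replicate 2 it was 3.74 for ugt-36 and 7.17 for ugt-32, against 5.71 with it. At these counts the sizes are loose while each ethanol library remained above each control.

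ugt-57 and ugt-65, which are among the 9 members that fell at 20 h, were high in the 20 h control. ugt-57 was at 0.196, 0.307 and 0.403 CPM in ethanol and 14.8, 19.6 and 13.1 CPM in the control. It passed the filter on low counts through that control alone, so it had to differ there, and its place among these falls and among the rises of the 20 h control over time zero is no result. ugt-65 was at 0.131, 0.69 and 0.575 CPM in ethanol and 6.19, 19.9 and 13.1 CPM in the control, and fell by 4.80 ± 0.52 (adjusted p = 1.23e-07). In every other group ugt-57 was at or under 0.555 CPM in each library. ugt-60 was at 4.05, 5.29 and 2.94 CPM in ethanol and 10.2, 14.1 and 12.4 CPM in the control, 3.01-fold lower (log2 -1.59 ± 0.25, adjusted p = 2.1e-05). ugt-23 was at 27.1, 34.8 and 24.3 CPM in ethanol and 48.6, 61.3 and 70.02 CPM in the control, 2.09-fold lower (log2 -1.06 ± 0.21, adjusted p = 0.000231). ugt-6, ugt-26, ugt-53, ugt-55 and ugt-59 fell too, by 0.56 to 2.04 on the log2 scale. The calls of ugt-6 and ugt-59 ended without single libraries, at adjusted p of 0.0581 to 0.0681 for ugt-6 without control replicate 2, ethanol replicate 2 or ethanol replicate 3, and of 0.0505 to 0.217 for ugt-59 without any but control replicate 1.

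Over the 3 times, 8 members were higher in ethanol at each one, namely ugt-5, ugt-9, ugt-19, ugt-40, ugt-41, ugt-47, ugt-51 and ugt-62. Patterns over the times were not counted for all tested genes. The numbers of members with each pattern are therefore descriptive and no result about the members. Another 8 rose at 4 and 20 h but not at 1 h: ugt-13, ugt-21, ugt-22, ugt-24, ugt-28, ugt-32, ugt-39 and ugt-48. ugt-1, ugt-44, ugt-58, ugt-63 and ugt-64 passed the test at 1 and 20 h and not at 4 h, and ugt-2, ugt-7, ugt-20, ugt-30, ugt-36, ugt-45 and ugt-54 at 20 h alone. At 4 h ugt-44 was lower in ethanol, at 10.1 to 12.6 CPM against 26.5 to 29.2 CPM in the control (log2 -1.34 ± 0.61, edgeR adjusted p = 0.11). It passed at 4 h with limma-voom, with the groups compared alone and without the 6 libraries above 10 on the main axis. Among the 8 that were higher at each time, the log2 fold change at 20 h ran from 1.76 for ugt-5 to 6.87 for ugt-41. Of these 8, ugt-5, ugt-9, ugt-40, ugt-41 and ugt-51 were also above time zero in ethanol at 20 h, with the limits given below for ugt-41. ugt-47, which was not, had log2 fold changes of 1.58 ± 0.19, 1.61 ± 0.19 and 3.00 ± 0.20 at 1, 4 and 20 h. Its ethanol libraries held 67.5, 89.8 and 63.1 CPM at 20 h, against 12.5, 6.36 and 8.68 CPM in the control and 82.2, 113, 97.2 and 89.4 CPM at time zero. A group of 8 did not pass the test at any time: ugt-3, ugt-42, ugt-43, ugt-46, ugt-49, ugt-50, ugt-52 and ugt-56. ugt-52 was at 7.77, 6.83 and 8.98 CPM in ethanol and 13.7, 5.30 and 5.68 CPM in the control at 20 h (log2 -0.06 ± 0.29, adjusted p = 0.879). In ugt-12, ugt-17, ugt-18, ugt-31, ugt-53 and ugt-59 the calls changed direction between times, with the limits given above for ugt-12, ugt-18 and ugt-59. ugt-31, for instance, fell at 1 and 4 h and was higher at 20 h, with 40.2, 42.3 and 35.6 CPM in ethanol against 7.26, 7.21 and 8.44 CPM in the control (log2 2.37 ± 0.15, adjusted p = 8.56e-11).

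The difference of the ethanol effect between times was tested for each gene. Between 4 and 1 h it passed for 28 of 54 members, beside 13.1% of all tested genes. The smallest adjusted p values were those of ugt-29, ugt-18 and ugt-22. For ugt-29 the log2 fold change was -0.40 ± 0.13 at 1 h, which did not pass the test, and 1.69 ± 0.14 at 4 h, a difference of 2.09 ± 0.20 (adjusted p = 2.9e-07). ugt-29 was at 32.3, 28.5 and 29.6 CPM in ethanol and 8.54, 10.02 and 9.42 CPM in the control at 4 h, and time zero held 33.2, 38.7, 36.4 and 41.9 CPM, above every library of both. For ugt-18 the difference was -3.80 ± 0.39 (adjusted p = 9.5e-07), and its 4 h controls held 30.5, 31.8 and 29.5 CPM. For ugt-22 it was 2.38 ± 0.33 (adjusted p = 3.78e-05), from 0.28 ± 0.23 at 1 h and 2.66 ± 0.24 at 4 h.

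Between 20 and 4 h the effect differed for 37 of 54 members, beside 32.3% of all tested genes, and between 20 and 1 h for 30 of 54, beside 35.7%. Of the 37, 26 had a higher log2 fold change at 20 h and 11 a lower one, which is 70.3% higher, or 81.2% with library sizes alone. Over all genes whose effect differed, the share higher at 20 h was 47.6%, or 52.5% with library sizes alone. ugt-31 had the smallest adjusted p of the members in both, with its log2 fold change larger at 20 h than at 4 h by 3.06 ± 0.21 (adjusted p = 1.89e-09) and than at 1 h by 4.16 ± 0.22 (adjusted p = 4.12e-11). ugt-2 was next, at 3.81 ± 0.31 over 4 h and 3.66 ± 0.31 over 1 h (adjusted p = 1.31e-08 and 1.28e-08). For ugt-2 the log2 fold changes at 1 and 4 h were 0.19 ± 0.21 and 0.03 ± 0.21, neither of which passed the test. ugt-63 differed between 20 and 4 h by 5.74 ± 0.59 (adjusted p = 2.57e-07), and ugt-41 between 20 and 1 h by 5.56 ± 0.51 (adjusted p = 4.39e-08). Without control replicate 1 at 20 h the difference of ugt-44 between 20 and 1 h was 1.17 (adjusted p = 0.00475), against -1.96 with it (adjusted p = 0.095). Also passing only without it were the differences of ugt-17, ugt-19, ugt-43 and ugt-52 between 20 and 1 h and of ugt-4, ugt-43 and ugt-62 between 20 and 4 h. The calls of ugt-20 in both (adjusted p = 0.0852 between 20 and 1 h and 0.0566 between 20 and 4 h), and of ugt-22 (0.2) and ugt-32 (0.167) between 20 and 4 h, ended without it.

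Worms kept in buffer without ethanol were then compared with time zero. These controls are the same libraries that ethanol was set against, so the values are given side by side and no relation between the comparisons is drawn. Most members fell over time in buffer. At 1 h, 9 members rose and 14 fell, beside 5.33% and 5.49% of all tested genes. At 4 h, 12 rose and 28 fell, beside 22.9% and 23.3%. At 20 h, 10 rose and 33 fell, beside 30.8% and 24.4%. The 28 include ugt-3 and ugt-42 and the 33 include ugt-42, falls that are no result because of the filter on low counts. The median log2 fold change of the members was -0.23, -0.69 and -1.33 at 1, 4 and 20 h, against 0.06, -0.06 and 0.07 over all tested genes. ugt-6, ugt-12, ugt-19, ugt-30, ugt-46, ugt-47, ugt-48, ugt-60, ugt-62 and ugt-63 were lower at all 3 times. At 1 h the calls of ugt-6, ugt-12 and ugt-46 ended without control replicate 2 (adjusted p = 0.0524, 0.0691 and 0.133), and those of ugt-12 and ugt-46 without control replicate 3 (0.0535 and 0.0745). Markers moved with these changes: 7 of 7 sperm genes fell at 4 and at 20 h, 7 of 9 neuronal genes rose at 20 h, and of 9 intestine genes 3 rose and 3 fell at 4 h and 1 rose and 3 fell at 20 h. Summed CPM of the sperm genes was 10.8 to 16.3 in the 20 h controls and 280 to 471 at time zero, and that of the intestine genes was 2558 to 3466 in the 20 h controls and 4250 to 5532 at time zero. The part of these in the ugt values was not tested.

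Among the falling genes given in full, ugt-63 fell the most at 1 h and at 20 h. That ugt-63 falls in buffer was known when it was chosen, so its fall is no result. It was at 7.72, 4.07 and 5.52 CPM in the 1 h control, against 55.8, 65.95, 60.2 and 56.9 CPM at time zero, 10.2-fold lower (log2 -3.35 ± 0.32, adjusted p = 3.38e-07). At 4 h its log2 fold change was -4.56 ± 0.35 and at 20 h -7.47 ± 0.45 (adjusted p = 2.89e-09 and 1.34e-11). Without control replicate 2 at 20 h, the highest of the 3 for this gene, the change was -8.17. At 1 h ugt-48 was at 5.54, 6.90 and 6.58 CPM in the control and 21.6, 34.8, 23.8 and 27.9 CPM at time zero, and fell by 2.10 ± 0.19 (adjusted p = 1.74e-07). ugt-19 was at 7.59, 4.30 and 5.81 CPM in the control and 17.3, 25.99, 23.2 and 22.5 CPM at time zero, and fell by 1.90 ± 0.30 (adjusted p = 0.000161). For ugt-47 the control held 29.1, 27.6 and 29.3 CPM, and the gene fell by 1.73 ± 0.18 (adjusted p = 1.07e-06).

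At 4 h in buffer ugt-53 was at 1.22, 0.343 and 0.422 CPM in the control and 12.7, 16.4, 17.4 and 15.6 CPM at time zero, and fell by 4.60 ± 0.37 on the log2 scale (adjusted p = 5.58e-09). Without control replicate 1 it fell by 5.31. ugt-22 was at 10.98, 13.4 and 11.7 CPM in the control, against the time zero values given above, and fell by 4.38 ± 0.26 (adjusted p = 6.88e-11). The gene next to ugt-62 in level per kilobase at time zero was by then 20.8-fold lower. ugt-13 was at 4.27, 2.06 and 2.39 CPM in the control and 37.3, 33.2, 31.04 and 32.6 CPM at time zero, and fell by 3.54 ± 0.29 (adjusted p = 5.58e-09). At 20 h ugt-13 was at 0.916, 0.0707 and 0.243 CPM and had fallen by 6.34 ± 0.37 (adjusted p = 7.76e-12), or by 7.70 without control replicate 1. ugt-41 at 20 h fell by 6.07 ± 0.41 (adjusted p = 1.09e-10), with the values given above. ugt-30 was at 1.15, 0.424 and 0.487 CPM in the 20 h control and 16.2, 22.97, 22.1 and 22.1 CPM at time zero, and fell by 4.91 ± 0.35 (adjusted p = 1.49e-10).

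Control replicate 1 at 20 h also moved values against time zero. Without it the log2 fold change was -5.02 for ugt-44 (-1.89 with it), -4.18 for ugt-43 (-2.48), -2.71 for ugt-15 (-1.85), -4.0045 for ugt-36 (-2.86), -4.60 for ugt-40 (-3.82), -3.84 for ugt-19 (-3.20) and -4.30 for ugt-62 (-3.68). ugt-1, with an adjusted p of 0.092 with it, then fell by 1.78 (adjusted p = 8.77e-05), and ugt-3 passed narrowly (adjusted p = 0.0449). The filter on low counts favoured the fall of ugt-3, which is no result. The calls of ugt-17 (adjusted p = 0.0783), ugt-28 (0.0617) and ugt-55 (0.236) ended.

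**Figure D3:**
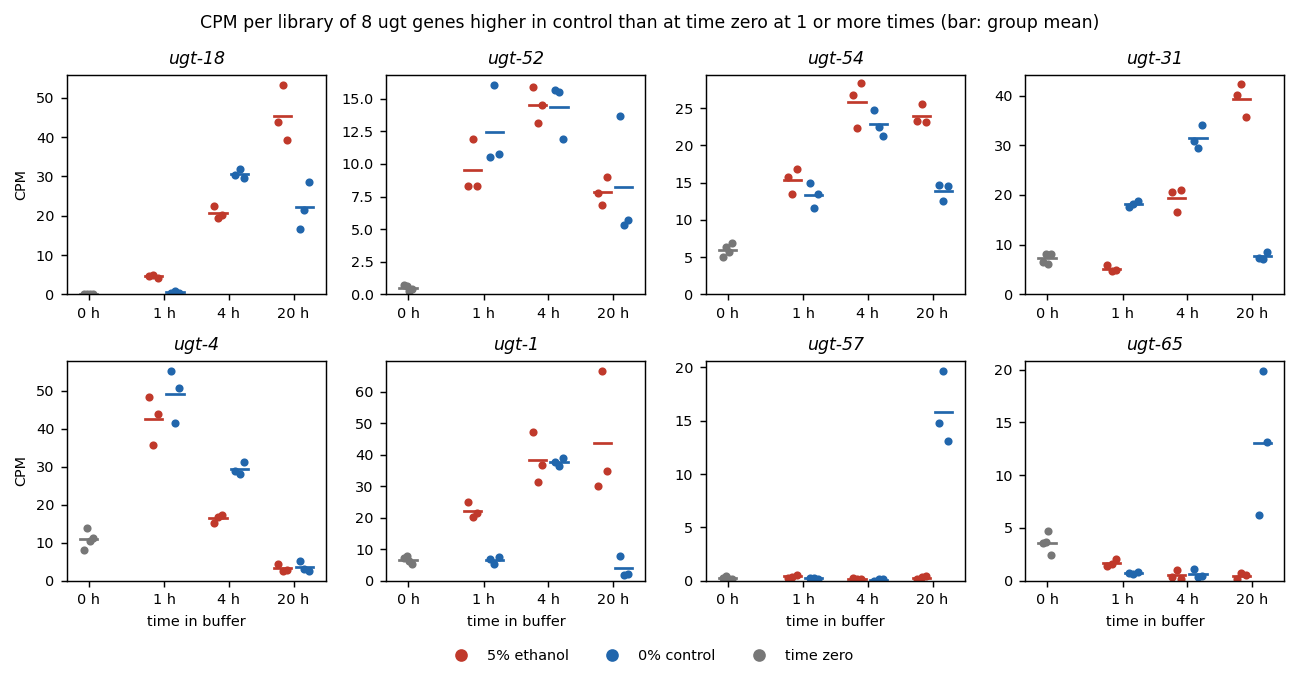
CPM in each library for 8 ugt genes that were higher in the control than at time zero at 1 or more times, with time in buffer on the x axis; red points are 5% ethanol, blue points the 0% control, grey points time zero, and bars are group means. ugt-52 and ugt-54 were above time zero in every ethanol and control library, and ugt-57 was above 13 CPM in the 20 h control libraries and at or under 0.555 CPM in all others.

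A smaller set of members was higher in buffer than at time zero. ugt-18, ugt-51, ugt-52 and ugt-54 were higher in the control at all 3 times. Apart from ugt-54, these were followed as genes known to rise in buffer alone, so their rises over time zero are no result. ugt-52 was at 10.52, 16.1 and 10.8 CPM in the 1 h control and 0.745, 0.672, 0.27 and 0.387 CPM at time zero, 23.3-fold higher (log2 4.54 ± 0.36, adjusted p = 2.01e-08). At 4 h it was higher by 4.76 ± 0.35 and at 20 h by 3.95 ± 0.36 (adjusted p = 1.7e-09 and 7.16e-09). Each buffer library, with or without ethanol, was above each time zero library for ugt-52, which passed no test between ethanol and control. ugt-51 was at 42.03, 33.4 and 36.7 CPM in the 1 h control and 5.49, 5.64, 5.04 and 6.81 CPM at time zero (log2 2.7 ± 0.15, adjusted p = 2.14e-10). It was higher by 1.37 ± 0.15 at 4 h (adjusted p = 4.17e-07) and by 0.41 ± 0.16 at 20 h (adjusted p = 0.0289), and the 20 h call ended without time zero replicate 1, 2 or 3 or control replicate 3 (adjusted p = 0.077, 0.0563, 0.083 and 0.0968). ugt-54 was at 24.7, 22.5 and 21.3 CPM in the 4 h control and 5.03, 6.38, 5.76 and 6.89 CPM at time zero (log2 1.92 ± 0.14, adjusted p = 1.3e-09), and was higher by 1.21 ± 0.14 at 20 h (adjusted p = 2.67e-07).

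ugt-18, nearly without counts at time zero, was well detected in buffer. It had 16 counts over the 1 h controls, 1234 over the 4 h controls and 872 over the 20 h controls, against 3 counts over the 4 time zero libraries. Scaled for library size, the ratio to time zero was 7.84 (exact 95% interval 2.24 to 42.0) at 1 h, 507 (173 to 2463) at 4 h and 365 (124 to 1772) at 20 h, intervals that cover counting error only. Adjusted p was 0.0029, 2.93e-13 and 7.6e-14. The 1 h call ended without control replicate 2 at 1 h (adjusted p = 0.0824), the library with 0.905 CPM.

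Other members were higher than time zero at some times in buffer and not at others. ugt-4 was at 55.2, 41.5 and 50.7 CPM in the 1 h control and 8.19, 13.97, 10.53 and 11.1 CPM at time zero (log2 2.16 ± 0.21, adjusted p = 3.99e-07), was still higher at 4 h and was lower than time zero at 20 h (log2 -1.62 ± 0.24, adjusted p = 5.75e-06). ugt-31 was at 17.5, 18.2 and 18.8 CPM in the 1 h control (log2 1.31 ± 0.14, adjusted p = 1.16e-06) and at 30.8, 29.4 and 34.1 CPM at 4 h (log2 2.11 ± 0.14, adjusted p = 3.35e-10). Its 20 h controls, at 7.26, 7.21 and 8.44 CPM, overlapped with time zero. ugt-1 was at 37.5, 36.2 and 38.9 CPM in the 4 h control and 7.35, 7.79, 6.21 and 5.26 CPM at time zero (log2 2.49 ± 0.35, adjusted p = 8.82e-06). At 4 h its ethanol libraries overlapped the control, at 47.1, 31.3 and 36.8 CPM, while at 20 h they were above it. ugt-57 and ugt-65 were high in the 20 h controls with the values given above, and the difference of ugt-65 from time zero was 1.86 ± 0.38 (adjusted p = 0.000241). At time zero ugt-57 was at 0.279, 0.403, 0.18 and 0.155 CPM and ugt-65 at 3.54, 3.69, 4.68 and 2.48 CPM.

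Ethanol libraries were also set against time zero, a comparison added after the data were seen. At 1 h, 13 members rose and 3 fell, beside 7.13% and 3.47% of all tested genes. The number that fell was 5 with DESeq2, 5 without the 6 libraries above 10 on the main axis and 9 with the covariate for exon length. The 3.47% comes from the main fit and is no background for these alternatives. At 4 h, 18 rose and 23 fell, beside 19.7% and 19.5%. At 20 h, 24 rose and 24 fell, beside 26.5% and 26.6%. The falls at 4 and 20 h include those of ugt-3 and ugt-42, which are no result because of the filter on low counts. The members' median log2 fold change was 0.03, -0.41 and -0.03 at 1, 4 and 20 h, where the controls had -0.23, -0.69 and -1.33 against the same time zero libraries. This comparison shares the ethanol libraries with the one above. Among the 32 genes above the 20 h control, ugt-1, ugt-2, ugt-5, ugt-7, ugt-9, ugt-17, ugt-18, ugt-20, ugt-21, ugt-24, ugt-28, ugt-31, ugt-32, ugt-36, ugt-40, ugt-41, ugt-45, ugt-51, ugt-54 and ugt-58 were also higher than at time zero. Without ethanol replicate 2 at 20 h the calls of ugt-28, ugt-32, ugt-36 and ugt-41 against time zero ended (adjusted p = 0.101, 0.0936, 0.0533 and 0.542), and that of ugt-28 also ended without time zero replicate 1 (0.0945) or 3 (0.0604). That of ugt-41 ended without time zero replicate 1 as well (0.0637). ugt-19, ugt-39, ugt-44, ugt-47 and ugt-62 did not differ from time zero past the threshold. ugt-12, ugt-13, ugt-22, ugt-30, ugt-48, ugt-63 and ugt-64 were above the 20 h control and yet below time zero, with ugt-63 past the threshold unless ethanol replicate 1 was left out (adjusted p = 0.0527).

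Values of 3 genes show the difference between these sets. ugt-51 in ethanol was above time zero by 4.46 ± 0.16, 4.15 ± 0.16 and 3.23 ± 0.15 on the log2 scale at 1, 4 and 20 h. ugt-47 in ethanol differed from time zero by -0.15 ± 0.17, -0.77 ± 0.18 and -0.38 ± 0.17, of which the 4 h value passed the test (adjusted p = 0.0015). ugt-22 in ethanol was at 29.6, 39.4 and 24.4 CPM at 20 h, against 217, 276, 243 and 265 CPM at time zero, and fell by 3.01 ± 0.24 (adjusted p = 1.42e-09), while it was 3.38-fold above the 20 h control at 13.8, 6.92 and 6.90 CPM. For ugt-42, which reached the filter in at most 1 group, 2 counts over the ethanol libraries at 20 h stood against 62 at time zero, a ratio of 0.0350 (exact 95% interval 0.00415 to 0.132). Time zero was the highest group of ugt-42, so the filter favoured this fall, which is no result.

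Many worm ugt genes lie next to each other in the genome, so neighbours were compared. By the gene order of the WBcel235 annotation, 34 of the 57 members are on chromosome V and 12 on IV, with 4 each on I and X, 2 on III and 1 on II. Counting as neighbours ugt genes with at most 2 other protein-coding genes between them, 29 members fell into 12 runs and 28 stood alone. Some neighbours had calls in opposite directions. In the run of ugt-12, ugt-11, ugt-9 and ugt-13, the log2 fold changes in ethanol at 4 h were -1.07 ± 0.26, -1.67 ± 0.22, 1.68 ± 0.21 and 2.15 ± 0.29, falls in ugt-12 and ugt-11 and rises in ugt-9 and ugt-13. Between ugt-9 and ugt-13 lie the left-out ugt-10, ugt-8 and ugt-14, which rose at 4 h like all 8 left-out genes. In the run of ugt-5, ugt-4, ugt-6 and ugt-3, ugt-5 rose at all 3 times and ugt-4 fell at 4 h (-0.84 ± 0.23, adjusted p = 0.00694). ugt-6 fell at 20 h (-1.15 ± 0.38, adjusted p = 0.0151), and ugt-3 passed no test in ethanol. The pair ugt-47 and ugt-17 was at 1.61 ± 0.19 and -1.16 ± 0.21 at 4 h. ugt-18 and ugt-15, with the left-out ugt-16 between them, were at 3.24 ± 0.32 and 0.82 ± 0.34 at 1 h. The value of ugt-15 did not pass (adjusted p = 0.21). At 20 h ugt-1 and ugt-2 were both higher in ethanol, by 3.49 ± 0.41 and 3.84 ± 0.24, and so were ugt-39, ugt-41 and ugt-36, by 0.56 ± 0.21, 6.87 ± 0.43 and 4.34 ± 0.58. How reads shared by similar neighbours were counted is not given in the sources used here, so values of clustered genes are uncertain to that extent. Differences between neighbours were not tested.

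**Figure D4:**
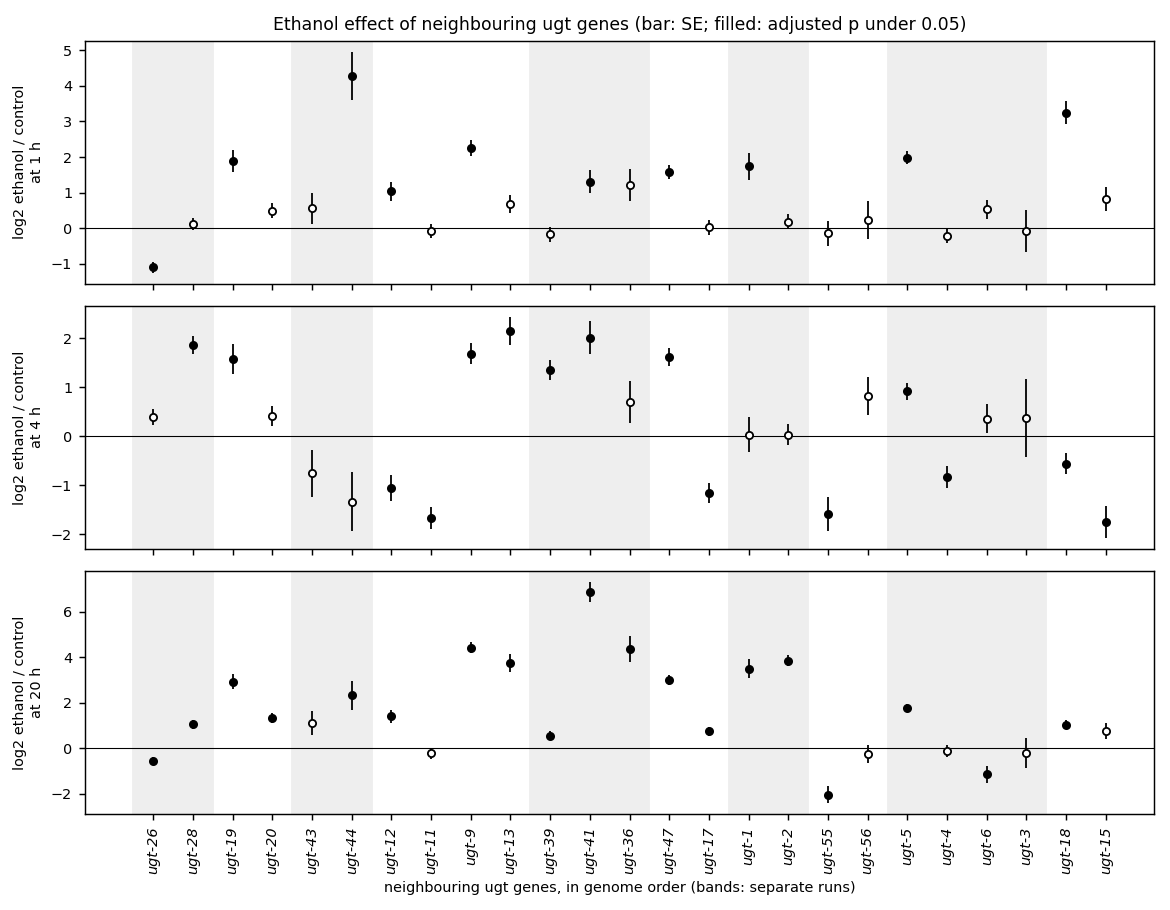
Log2 fold change of ethanol against the control at 1, 4 and 20 h (panels from top) for tested members that lie in the same run, in genome order; bands separate runs, bars are SE and filled points have an adjusted p under 0.05. Left-out and untested ugt genes that lie between them are not drawn. Within the run of ugt-12, ugt-11, ugt-9 and ugt-13 the 4 h points lie on both sides of 0, from -1.67 for ugt-11 to 2.15 for ugt-13.

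Genes that supply the sugar donors were counted in the same way. Of 11 genes for UDP-sugar supply and use, 10 were in the table and tested. In ethanol against the control 1 rose at 4 h (10%) and 3 rose at 20 h (30%), beside 17.1% and 25% of all tested genes, while at 1 h the log2 fold changes ran from -0.30 for sqv-2 to 0.32 for sqv-3, and the lowest adjusted p was 0.422. Their median log2 fold change was 0.10, -0.05 and 0.19 at 1, 4 and 20 h. gale-1, which encodes a UDP-galactose 4-epimerase, was at 201.3 ± 9.50 CPM in ethanol and 74.3 ± 4.86 CPM in the control at 4 h (SD, n = 3 each), higher by 1.44 ± 0.12 (edgeR adjusted p = 1.06e-08). At 20 h sqv-4, the UDP-glucose dehydrogenase that makes UDP-glucuronic acid, was at 374 ± 57.1 CPM in ethanol and 246 ± 77.5 CPM in the control, higher by 0.60 ± 0.20 (edgeR adjusted p = 0.0146). In the controls against time zero 5 of 10 rose at 4 h, beside 22.9% of all tested genes, and at 20 h 1 rose and 1 fell, beside 30.8% and 24.4%. At 1 h the lowest adjusted p was 0.409. sqv-4 at 4 h was higher by 0.48 ± 0.18 (edgeR adjusted p = 0.0385).

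Of 20 genes for regulators of detoxification, all tested, 5 rose in ethanol at 1 h, 5 rose and 1 fell at 4 h, and 7 rose and 3 fell at 20 h. The list was chosen with earlier results of these data known, among them the early rises of nhr-62 and nhr-142 in ethanol. These counts, and the values of nhr-62 and nhr-142 below, are therefore no independent result. Over all tested genes 4.94%, 17.1% and 25% rose and 1.72%, 13.4% and 28.1% fell at 1, 4 and 20 h. At 20 h the 7 rises of 20 were a larger share than the 25%, and the 3 falls a smaller one than the 28.1%. These shares were not compared by a test. Their median log2 fold change was 0.15, 0.19 and 0.17 at the 3 times. nhr-62, a nuclear hormone receptor gene, was at 91.8 ± 3.02 CPM in ethanol and 3.02 ± 0.199 CPM in the control at 1 h (SD, n = 3 each), higher by 4.93 ± 0.17 (edgeR adjusted p = 1.06e-13). nhr-142, of the same family of receptors, was at 29.2 ± 1.09 CPM in ethanol and 3.15 ± 0.423 CPM in the control, higher by 3.22 ± 0.18 (edgeR adjusted p = 1.75e-10). pqm-1, a zinc-finger transcription factor gene of stress and metabolism, was at 159.7 ± 12.3 CPM in ethanol and 47.5 ± 3.82 CPM in the control, higher by 1.75 ± 0.14 (edgeR adjusted p = 2.43e-08). All 3 rose at 4 and 20 h too. The genes that fell were nhr-114, another nuclear hormone receptor gene, at 4 h (log2 -2.04 ± 0.30, edgeR adjusted p = 2.7e-05) and at 20 h (-1.09 ± 0.29, edgeR adjusted p = 0.00322), and at 20 h ahr-1, the aryl hydrocarbon receptor gene (-2.36 ± 0.49, edgeR adjusted p = 0.000413), and hif-1, the hypoxia-inducible factor gene (-0.86 ± 0.27, edgeR adjusted p = 0.0103). In the controls against time zero, 3 of the 20 rose and 2 fell at 1 h, 5 rose and 1 fell at 4 h, and 7 rose and 1 fell at 20 h, beside 5.33% and 5.49%, 22.9% and 23.3%, and 30.8% and 24.4% of all tested genes.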

How the data were processed

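The authors deposited raw counts, 1 whole number for each gene and each of 22 libraries. Tools named in the submitters' processing notes are Trimmomatic 0.39 and fastp 0.23.2, STAR 2.7.9a, and Subread 2.0.3 with featureCounts; the build named is ce10. The sources used here give no annotation, strand setting or treatment of multiply mapped reads, which leaves counts of similar or overlapping ugt genes uncertain. Per the labels, libraries came from polyA RNA with the Kapa mRNA HyperPrep kit, and groups, times and replicate numbers come from the same labels. Library totals of 10908205 to 15302047 counts limit the precision of genes with few counts.

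edgeR 4.0.16 in R 4.3.3 tested the 15310 genes that passed filterByExpr (minimum count 10, minimum total 15). A single quasi-likelihood fit with robust dispersions held all 22 libraries, 7 group means and TMM factors. Tests were two-sided, p-values were Benjamini-Hochberg adjusted over all tested genes, and the threshold was 0.05. SE is the log2 fold change divided by the square root of F. The fit was tested on simulated data. Exon lengths and gene order came from WBcel235, in which all 65 ugt genes were matched; no coordinates are given because the build differs. Over 24 pairs of group mates, chi-square per degree of freedom was 2 or more, and no 2 libraries held identical values, so each library counted as 1 replicate.

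The members, gene lists and tests were chosen with earlier results of these data known. Full values were given to the 6 largest rises and 4 largest falls in each ethanol comparison and the 4 of each against time zero, among genes past the threshold whose groups did not overlap, a mean CPM of 5 or above and 10 or more counts in both groups. ugt-18, ugt-51 and ugt-52, known to rise in buffer alone, and ugt-63, known to fall in it, were followed at every time. For each difference between times 3 genes were named. Alternatives were DESeq2 1.42.0, limma-voom (limma 3.58.1), other scaling factors and filters, the groups compared alone, a test against a log2 fold change of 1, a replicate block and each library left out. Added after the data were seen were the comparisons of ethanol with time zero, a fit without the 6 libraries above 10 on the main axis, and a covariate for each library's slope on exon length. Deviations of same-numbered ethanol and control libraries correlated at 0.603 and 0.621 for replicates 1 and 2 at 1 h, and at -0.0685 for replicate 3. At 4 and 20 h they correlated between -0.36 and 0.185. The replicate block joins equal numbers over all groups, so a batch shared at 1 h alone was not tested.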

Additional observations from a re-analysis of the deposited data

Results flagged for a closer look

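Of 34 members with full values at time zero, 4 had a library set apart from the other 3 by Dixon's ratio, the gap to the nearest library over the whole range, above its 95% critical value. The ratio was 0.908 for the highest library of ugt-5 (13.3 CPM), 0.831 for the lowest of ugt-18 (no counts, where the others had 1 each), 0.864 for the lowest of ugt-30 (16.2 CPM) and 0.890 for the lowest of ugt-40 (2.42 CPM). Chance sets a library apart in this way in about 1 in 20 groups.

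The ethanol effect differed between times, by the test of the difference itself, for the following members among others. They are the 3 with the smallest adjusted p for each difference. From 1 to 4 h the difference in log2 fold change was 2.09 for ugt-29, -3.80 for ugt-18 and 2.38 for ugt-22. From 4 to 20 h it was 3.06 for ugt-31, 3.81 for ugt-2 and 5.74 for ugt-63. From 1 to 20 h it was 4.16 for ugt-31, 3.66 for ugt-2 and 5.56 for ugt-41. Each passed edgeR's quasi-likelihood test at an adjusted p of 3.78e-05 or less, values by which they were picked.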

How the results depend on the processing

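Counts of members called stayed within 1.5 times of those given under DESeq2, limma-voom, other scaling, other filters, the groups compared alone and each library left out, except that 5 members were lower in ethanol at 1 h than at time zero with DESeq2. Requiring a log2 fold change above 1 left 8 higher and 1 lower in ethanol than control at 1 h, 2 lower at 4 h, and 21 higher and 5 lower at 20 h. For control against time zero it left 3 higher and 4 lower at 1 h, 6 higher at 4 h and 6 higher at 20 h. For ethanol against time zero it left 6 higher and 1 lower at 1 h, 14 lower at 4 h, and 13 higher and 14 lower at 20 h, and for differences between times 11 (4 and 1 h), 17 (20 and 4 h) and 16 (20 and 1 h). Such a test asks for a larger change. With the length slope covariate 23 were higher in ethanol than control at 1 h and 9 lower in ethanol at 1 h than at time zero. Without the 6 libraries above 10 on the main axis 5 were lower there. Shares of all tested genes under these fits are not given here, and the cause was not tested. Deviations of same-numbered libraries correlated between -0.36 and 0.621 over 9 pairs, with the 2 highest values, 0.603 and 0.621, at 1 h. Whether the 1 h libraries share a batch by number was not tested. With the replicate block 15, 18 and 31 members were higher and 2, 9 and 9 lower in ethanol than control at 1, 4 and 20 h. The value of ugt-52, which passed no test in ethanol, changed sign. At 4 h it was -0.005 with DESeq2, -0.0049 with RLE factors and -5e-04 with upper-quartile factors, and -0.1025 to 0.0859 with each library left out. At 20 h it was 0.0781 with limma-voom, 0.0969 with library sizes alone, 0.0051 with no filter, 0.4029 without the 6 libraries and 0.0228 with the length covariate, and -0.2996 to 0.5217 with each library left out. Of 1432 alternative values of genes given in full, 1388 kept their direction and side of the threshold, 31 lost their call, 1 gained one and 12 changed sign, all of them of ugt-52. Library sizes alone moved the median of all genes by over 0.1 at 20 h, to 0.10 for ethanol against control, 0.15 for control and 0.22 for ethanol against time zero. Upper-quartile factors moved it to 0.12 for control against time zero at 20 h. Depth limits the tested members ugt-3, ugt-18, ugt-32, ugt-36, ugt-40, ugt-42 and ugt-57, which have under 10 counts in at least 1 group.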
